A study of Homo sapiens and Mus musculus with 6 samples.

Results

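Promoter contacts of *Zic1*, *Zic2*, *Zic4*, *Zic5*, *Otx1*, *Otx2*, *En1*, *En2* and *Gbx2* were taken from Promoter CHi-C in mouse embryonic stem cells (mESCs). Every listed call with any of these 9 symbols at either end was kept, which gave 163 of the 101841 calls, on 9 of the 17157 fragments that carry a promoter name. The same symbols, ignoring case, were then looked up in the human lymphoblastoid cell line GM12878, where they were at an end of 16 of 92929 calls, on 7 fragments that carry 8 of the 9 symbols. *OTX2* had no listed call in GM12878.

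Promoter CHi-C cuts cross-linked chromatin with *Hin*dIII, ligates the ends and enriches for ligations with the fragments that carry promoters (the baits). The mESCs were J1 cells of strain 129S4/SvJae, grown on feeder fibroblasts that were then depleted, with 2 biological replicates, and GM12878 had 3, and the labels name no treatment for either. The authors merged the replicates of a cell type before calling, so no spread between replicates can be computed here, and the 95% intervals below are counting intervals that treat calls at neighbouring fragments as if they were independent. In addition, 1 Hi-C library of mESCs, made without capture, gave contacts between bins of 25 kb or 1 Mb.

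The 9 genes encode transcription factors of early neural development. ZIC proteins are zinc finger factors of the neural plate and neural crest, and their genes lie in divergent pairs, *Zic1* with *Zic4* and *Zic2* with *Zic5*. OTX proteins are homeobox factors of the forebrain and midbrain, Gbx2 is the homeobox factor of the anterior hindbrain that limits *Otx2*, and the Engrailed proteins En1 and En2 are homeobox factors of the midbrain and anterior hindbrain. In pluripotent cells most promoters of this kind are CpG-rich and lie under Polycomb chromatin, and Polycomb-bound promoters are known to contact each other over long distances.

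The bait fragments were all rich in CpG. The ratio of observed to expected CpG ran from 0.497 on the *Zic4* fragment to 0.795 on the *Zic2* fragment, with a median of 0.636 over the 9 fragments, against 0.299 over all 17157 named fragments and 0.487 over 247 fragments of other developmental transcription factors. Only 1.80% of named fragments had a ratio as high as that of *Zic2*, and 17.1% had a ratio as high as that of *Zic4*. The named partner fragments over 1 Mb away from a member, 17 in number, had a median ratio of 0.651. To show what meets at some of the distant pairs, the 200 bases before a transcription start on the fragment are given for 3 members and 3 partners of members, read 5′ to 3′ along transcription from mm9, with every CG in capitals. These are *En2* (chr5:28492036-28492235, + strand) and its partner *Mnx1* (chr5:29805060-29805259, - strand), *Bcl11a* (chr11:23980470-23980669, + strand), a partner of *Otx1*, *Zic1* (chr9:91260649-91260848, - strand) and its partner *Tbx18* (chr9:87626096-87626295, - strand), and *Zic2* (chr14:122874404-122874603, + strand), whose contacts were the most numerous. None of these windows overlaps an annotated exon.
En2: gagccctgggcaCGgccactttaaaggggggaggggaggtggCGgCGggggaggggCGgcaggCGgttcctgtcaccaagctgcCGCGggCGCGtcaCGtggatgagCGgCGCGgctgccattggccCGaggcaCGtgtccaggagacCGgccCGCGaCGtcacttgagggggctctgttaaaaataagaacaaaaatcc
Mnx1: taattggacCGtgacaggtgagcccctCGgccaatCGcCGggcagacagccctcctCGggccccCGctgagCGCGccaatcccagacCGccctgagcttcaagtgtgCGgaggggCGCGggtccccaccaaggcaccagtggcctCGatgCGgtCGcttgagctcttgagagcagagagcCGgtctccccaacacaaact
Bcl11a: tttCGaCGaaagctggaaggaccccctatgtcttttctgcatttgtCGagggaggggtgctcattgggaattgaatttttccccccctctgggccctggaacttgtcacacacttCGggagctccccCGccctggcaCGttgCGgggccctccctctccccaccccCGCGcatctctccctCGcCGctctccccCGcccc
Zic1: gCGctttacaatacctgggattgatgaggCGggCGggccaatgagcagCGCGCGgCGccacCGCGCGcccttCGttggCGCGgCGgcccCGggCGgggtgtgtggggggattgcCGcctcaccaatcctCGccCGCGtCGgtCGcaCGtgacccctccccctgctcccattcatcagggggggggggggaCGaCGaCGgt
Tbx18: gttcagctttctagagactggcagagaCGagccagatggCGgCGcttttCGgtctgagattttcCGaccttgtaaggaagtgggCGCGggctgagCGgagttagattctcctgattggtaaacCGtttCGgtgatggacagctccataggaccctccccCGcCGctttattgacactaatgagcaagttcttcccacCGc
Zic2: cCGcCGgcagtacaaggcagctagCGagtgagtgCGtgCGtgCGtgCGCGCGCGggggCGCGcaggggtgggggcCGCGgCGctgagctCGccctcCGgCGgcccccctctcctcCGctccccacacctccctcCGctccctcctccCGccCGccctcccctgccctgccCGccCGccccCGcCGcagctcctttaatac
These windows held 12 to 26 CG, fewest before *Bcl11a* and most before *Zic1* and *Zic2*. The median over 22233 protein-coding genes was 8, 90.4% of those windows held at least 1 CG, and 6.63% held at least 26. For those genes the window lay before the protein-coding transcript first by name, with no rule on exons or fragments. Their windows were thus not chosen like those of the members and partners. Among the 9 members the range was wider, from 2 CG before the start of *Gbx2* to 26, and 7 of the 9 windows were above the median of all genes.

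Contacts over long distances within a chromosome were common. Of the 163 mESC calls, 54 spanned over 1 Mb in *cis*, 33.1% (26.4 to 40.7), against 3.37% of all calls (3.26 to 3.49) and 21.7% (20.6 to 22.9) of the 5029 calls of other developmental transcription factors. Distances over 10 Mb were found in 10 calls, 6.13% (3.37 to 10.9), against 1.25% of all calls and 8.21% (7.49 to 9.0) of those of other developmental factors when *trans*-chromosomal calls are counted with them. None of the 163 calls was *trans*-chromosomal, which allows a share of up to 1.84%, and 0.569% of all calls were. The median distance was 262 kb (219 to 331) against 139 kb (138 to 140) for all *cis*-chromosomal calls and 221 kb (207 to 238) for the other developmental factors. The intervals of the members did not overlap those of all calls for the share over 1 Mb, the share over 10 Mb and the median. Choosing calls by either end counts a pair 2 times where both of its baits called it. With each fragment pair counted once, 36 of 136 member pairs spanned over 1 Mb, 26.5% (19.8 to 34.5), against 3.07% (2.96 to 3.18) of all pairs and 19.9% (18.7 to 21.1) of pairs of other developmental factors, and the intervals of the members and the other developmental factors then overlapped. With at least 10 reads per call, 17 of 110 member calls spanned over 1 Mb, 15.5% (9.88 to 23.4), against 0.853% of all such calls. At that minimum the median distance was 151 kb (49.2 to 212), and the interval for all calls, 89.1 to 90.9 kb, lay within that of the members, and 0 of 110 calls spanned over 10 Mb.

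Counted by bait, 6 of the 9 member baits had a call over 1 Mb to another baited fragment, against 5.10% of all 16265 mESC baits with a call and 51.2% of 242 baits of other developmental factors. For calls over 1 Mb to any fragment the members were again 6 of 9, against 6.68% of baits and 56.2% of those of other developmental factors, and for calls over 10 Mb they were 3 of 9, against 1.39% and 36.4%. The members without a call over 1 Mb were *Otx2*, *Zic5* and *Gbx2*. A *trans*-chromosomal call was listed for 0 of 9, against 2.02% of baits. A call with a score of at least 30 was listed for *Zic1*, *Zic2*, *Zic4*, *Otx1* and *En2*, 5 of 9 baits, against 3.09% of all baits and 36.0% of the other developmental factors. The CHiCAGO score is a weighted minus log p-value of the read count against the background that distance and noise predict, and calls are listed from 5 upwards.

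**Figure D1:**
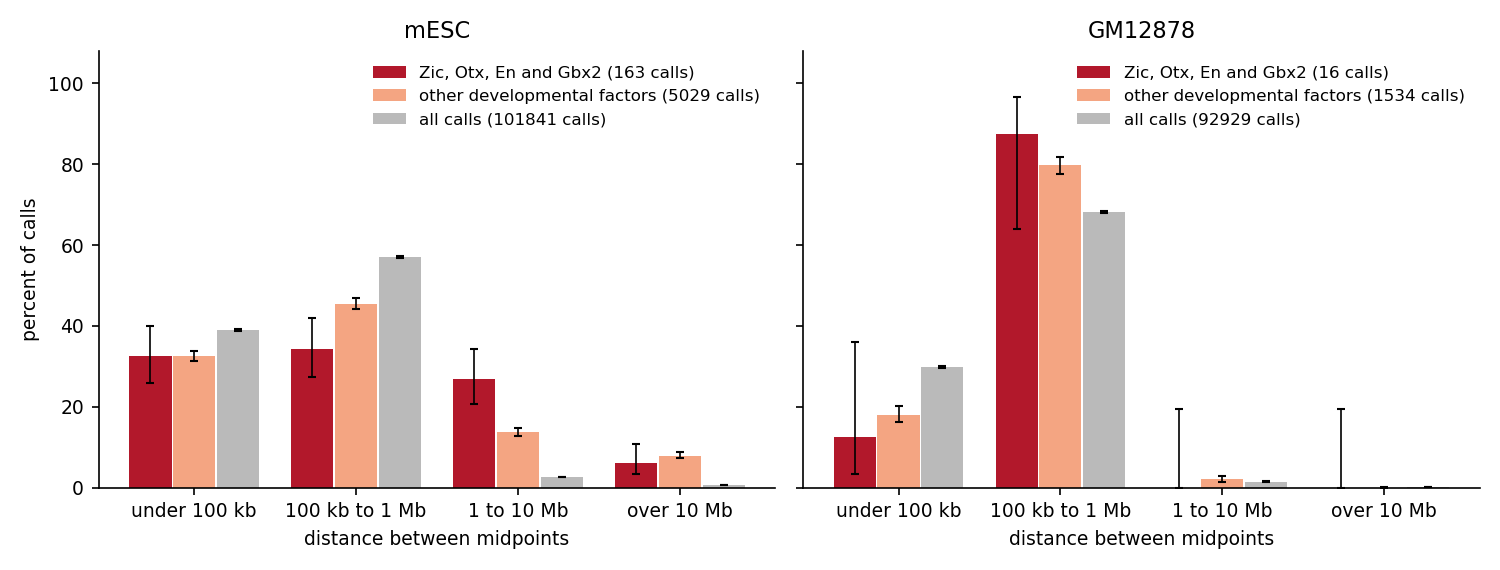
Percent of calls (y axis) in each class of distance between fragment midpoints (x axis) for the members, other developmental transcription factors and all calls, in mESCs on the left and GM12878 on the right, with Wilson 95% intervals as error bars. In mESCs 27.0% of the members' calls spanned 1 to 10 Mb against 2.69% of all calls, and in GM12878 none of the 16 did.

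The number of contacts differed widely between the members. *Zic2* (chr14:122872564-122876900) had 48 calls as the bait, a number that 0.609% of mESC baits reached, and 49 distinct partner fragments. *Zic1* had 18 partner fragments, *En2* 17, *En1* 16, *Zic4* 12, *Otx1* 10, *Zic5* 9, *Otx2* 4 and *Gbx2* 2. The medians of their distances ran from 29.4 kb for *Zic5* to 2528 kb for *Otx1*. Baited partners were few in number at *Zic2*, 7 of 49, and made up 5 of 16 at *En1*, 6 of 17 at *En2*, 4 of 10 at *Otx1* and 5 of 18 at *Zic1*. Over all members 38.0% of calls (30.9 to 45.7) were bait-to-bait, but a call made from the partner's bait is bait-to-bait by construction. Among calls with a member as the bait the share was 24.6% (18.1 to 32.6), against 36.3% (36.0 to 36.6) of all calls, and with each pair counted once it was 25.7% (19.1 to 33.7), against 31.1% (30.8 to 31.4) of all pairs. Over 1 Mb, 37 of 54 calls were bait-to-bait, 68.5%, but as distinct pairs these were 19 of 36, 52.8% (37.0 to 68.0), against 37.4% (35.7 to 39.2) of all pairs over 1 Mb, and these intervals overlapped. Up to 1 Mb, 16 of 100 distinct pairs were bait-to-bait, 16.0% (10.1 to 24.4), against 31.1% (30.8 to 31.4).

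**Figure D2:**
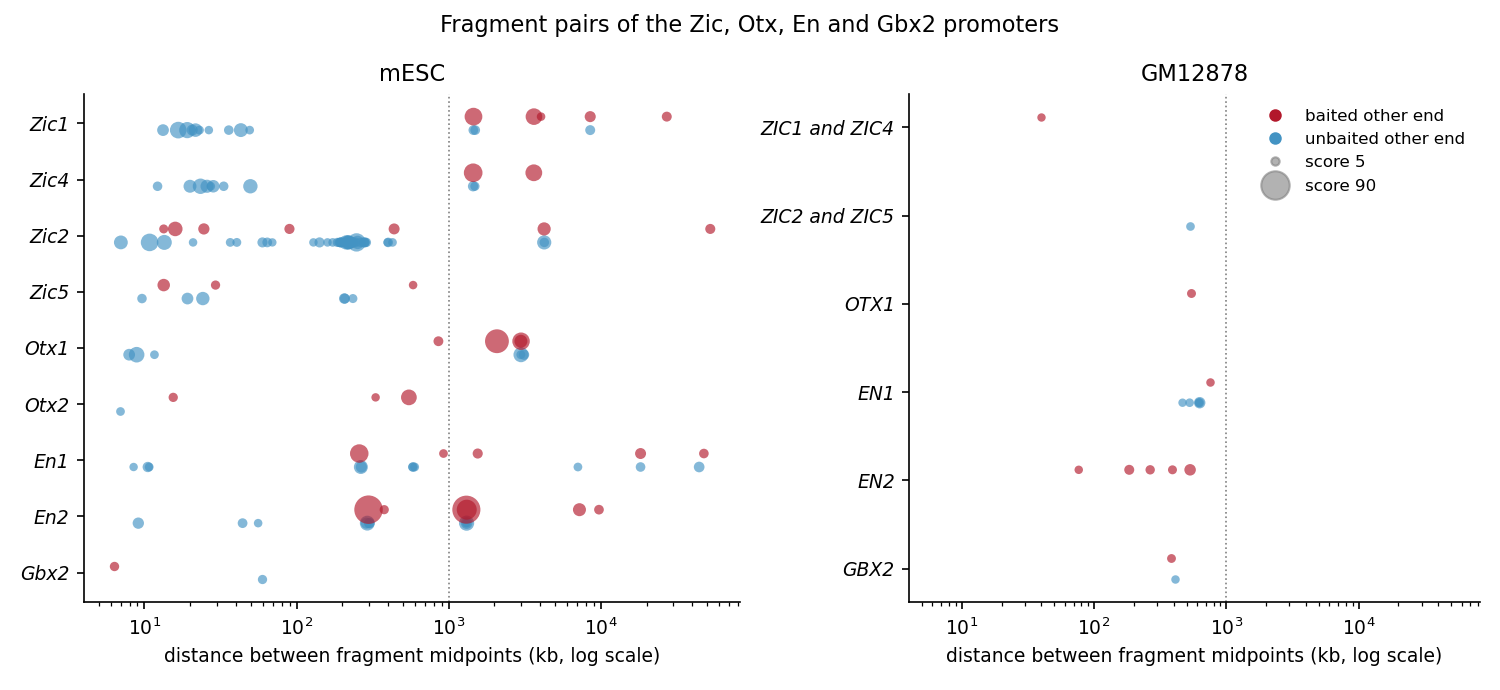
Every fragment pair of the members by distance (x axis, log scale) and promoter (y axis) in mESCs and GM12878, with the area of a point growing with the higher of its CHiCAGO scores and the dotted line at 1 Mb. *Zic2* shows a dense run of unbaited fragments near 200 to 300 kb, *En2* and *Otx1* carry the highest scores beyond 1 Mb, and all GM12878 pairs lie at 750 kb or less.

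Other developmental regulators were frequent among the promoter partners over 1 Mb away. The 6 members with such contacts formed 19 promoter pairs, of which 10 reached a gene of the developmental transcription factor list, namely *Mnx1*, *Msx1*, *Meis1*, *Tbx18* (with *Zic1* and with *Zic4*), *Sox14*, *Sox21*, *Eomes*, *Lhx9* and *Gli2*. Counted as calls this was 20 of 37, 54.1% (38.4 to 69.0), against 25.0% (23.0 to 27.2) of all bait-to-bait calls over 1 Mb and 42.4% (37.4 to 47.6) of those whose bait is another developmental factor. With a member as the bait it was 10 of 19, 52.6% (31.7 to 72.7). The 42.4% includes calls from other developmental baits to members. Without calls that touch a member it was 40.8% (35.7 to 46.0), an interval that lies within that of the members as baits. The list as written left out symbols such as *Bcl11a*, and with any single letter allowed after a prefix the count was 22 of 37, 59.5%. Up to 1 Mb 2 of 25 bait-to-bait calls, 8.00% (2.22 to 25.0), reached the list, and both were the *Zic2* to *Zic5* pair called from either side. The share was 3.06% (2.89 to 3.25) of all such calls and 39.0% (35.7 to 42.3) of those whose bait is another developmental factor. Over all distances the share was 22 of 62, 35.5% (24.7 to 47.9), against 4.03% of all bait-to-bait calls and 1.49% of named fragments. By bait, 7 of 9 members had a called partner on the list, against 4.98% of all baits and 53.3% of other developmental factors.

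Genes of the other lists were rarely or never partners. Of 32 genes of midbrain and hindbrain patterning, 28 had a named fragment in the mESC list, members included, and *Shh* was the only partner among them. *Shh* was also the only partner among 71 signalling ligands and antagonists. None of 19 pluripotency genes with a named fragment and none of 51 cytosolic ribosomal protein genes was a partner. Since only 31 of the 17157 named fragments, 0.181%, were a promoter partner of a member, such zeros cannot be told from the background.

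*En2* had the highest scores. Its bait (chr5:28491938-28496577) and the fragment of *Shh*, which encodes the secreted morphogen Sonic hedgehog, lay 297 kb apart and were joined by 65 reads, with a score of 90.40 from *En2* and 57.55 from *Shh*. Flanking unbaited fragments 287 to 302 kb downstream of *En2* were called too, on 8 to 17 reads. The *Shh* fragment is itself a bait, and by the paper pairs of baits have higher expected counts at equal distance. Its reads therefore cannot be compared directly with those of its unbaited neighbours. The fragment of *Mnx1*, a homeobox gene of motor neurons, lay 1307 kb away and was joined to *En2* by 40 reads, with scores of 87.88 and 60.58. By the higher score this pair ranked 14 among the 1628 bait-to-bait calls over 1 Mb in mESCs. The bait beside it, which carries the small nuclear RNA *U6.54*, had 22 reads and scores of 43.05 and 33.18. A further 4 fragments, unbaited and 1298 to 1318 kb away, had 4 to 11 reads, and the same limit applies to them. Farther along the chromosome, *En2* reached the fragment of *E130018O15Rik*, which also overlaps an exon of the homeobox gene *Hmx1*, at 7236 kb with 7 reads and a score of 16.52, and the homeobox gene *Msx1* at 9723 kb with 4 reads and scores of 6.79 and 7.82. *Paxip1*, a gene of the DNA damage response, was called from its own bait only, at 377 kb on 5 reads with a score of 6.74.

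*Otx1* showed a gap between near and far contacts. Its 3 nearest pairs, 7.95 to 11.7 kb downstream, rested on 33 to 98 reads, and the next pair was 856 kb away. The promoter of *Bcl11a*, a zinc finger repressor, lay 2076 kb upstream and was joined by 25 reads, with scores of 62.41 and 37.69, rank 28 among bait-to-bait calls over 1 Mb. On the other side *Otx1* reached *Meis1*, a homeobox gene, at 2984 kb with 8 reads and scores of 16.25 and 12.83, and the noncoding transcript *Gm16141*, whose fragment overlaps an exon of *Meis1*, at 2990 kb with 13 reads and scores of 32.22 and 25.45. *B3gnt2*, a glycosyltransferase gene, was called at 856 kb from *Otx1* only, with 8 reads and a score of 8.18. *Otx2* (chr14:49286212-49290008) had no pair over 1 Mb. Its highest score, 25.49, was for *Peli2*, an E3 ubiquitin ligase gene, 548 kb downstream with 16 reads, and the other baited partners were the small nuclear RNAs *U6.587* at 15.5 kb and *U1.141* at 331 kb.

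*En1* (chr1:122495955-122504856) contacted *C1ql2*, which encodes a secreted synaptic protein, 258 kb upstream on 23 reads, and here the score was higher from the partner, 36.37, than from *En1*, 16.36. Adjacent unbaited fragments at 265 and 267 kb had 21 and 14 reads. Its more distant promoter partners rested on few reads. *Gli2*, a transcription factor of the hedgehog pathway, lay at 1552 kb with 8 reads, *Lhx9*, a LIM homeobox gene, at 18244 kb with 5 reads and scores of 10.79 and 10.90, and *Fev*, an ETS factor of serotonergic neurons, at 47568 kb with 4 reads and scores of 6.79 and 7.64. An unbaited fragment 44286 kb away, nearest to *Pax3*, had 4 reads and a score of 10.15. *Htr5b*, a serotonin receptor gene, was called at 924 kb with 7 reads. *Gbx2* had only 2 pairs, the baited fragment named *uce* at 6.31 kb with 61 reads, called from that bait, and an unbaited fragment in an intron of *Agap1* at 59.3 kb with 14 reads.

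**Figure D3:**
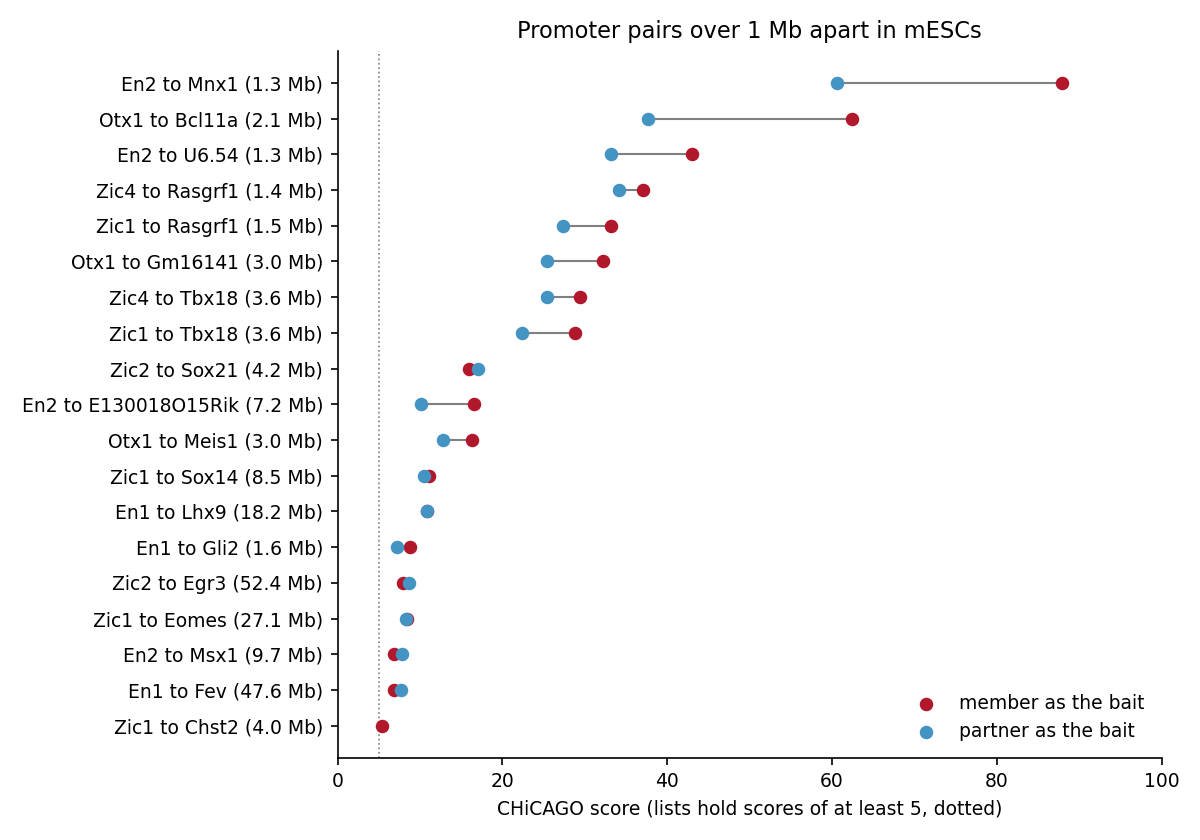
CHiCAGO score (x axis) of the 19 promoter pairs over 1 Mb apart in mESCs (y axis), with the member as the bait in red and the partner as the bait in blue, and the listing threshold dotted. Pairs below a score of about 11 rest on 4 to 8 reads, and the score from the member's side was the higher one in 13 of the 18 pairs called from both ends.

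A pair called from either side has a single read count but 2 scores, since each bait has its own background. Of the 35 promoter pairs in mESCs, 27 were called from both ends. The larger score exceeded the smaller by a median factor of 1.27, with a range of 1.01 to 2.36, and the member's side was higher in 18 of the 27. The pair that differed most was *Zic2* with *Zic5*, the only call between 2 members, 13.4 kb apart on 78 reads, with a score of 15.00 from *Zic5* and 6.35 from *Zic2*.

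*Zic2* contacts lay mainly upstream, 42 of its 49 partner fragments. Beyond the neighbouring *Zic5*, 28 partners were 129 to 288 kb upstream, none of them baited, and all 28 lay in *Clybl*, a gene for a mitochondrial enzyme, 27 of them in introns only. They rested on 10 to 37 reads with a median of 13, and their scores ran from 5.33 to 35.84 with a median of 7.19. The peak was at 248 kb, where a fragment within an intron of *Clybl* (chr14:122623212-122630091) had 37 reads and the score of 35.84, and a second rise lay at 212 to 221 kb, where 4 fragments had 23 to 26 reads and scores of up to 20.78. *Zic5* shared the peak fragment with *Zic2*, on 7 reads, as well as 2 fragments of the second rise next to each other (chr14:122652302-122654719 and chr14:122654720-122655810), on 9 and 10 reads. The other shared partners were *Gm10837* and an unbaited fragment close to it. With *Zic5* as the bait the number of partners was thus lower, 9 against 49, and the reads at shared fragments within *Clybl* were lower as well, for example 7 against 37.

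Close to the bait, *Zic2* reached unbaited fragments at 10.8 kb downstream with 189 reads, the most of any member pair, and at 7.01 kb upstream with 167 reads. Its baited partners were *Gm10837* at 16.0 kb with 95 reads, *Gm5089* at 24.6 kb with 56, *AC154683.1* at 89.9 kb with 22 and *A2ld1* at 438 kb with 6. Far partners were *Sox21*, an HMG-box gene of neural progenitors, at 4240 kb with 9 reads and scores of 15.96 and 17.08, and the zinc finger gene *Egr3* at 52396 kb with 4 reads and scores of 7.91 and 8.68. The latter was the longest distance of any member call. The unbaited fragments near *Sox21*, at 4245 and 4253 kb, had 9 and 5 reads. *Zic5* had 1 farther promoter partner, *Ubac2*, at 584 kb with 6 reads.

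**Figure D4:**
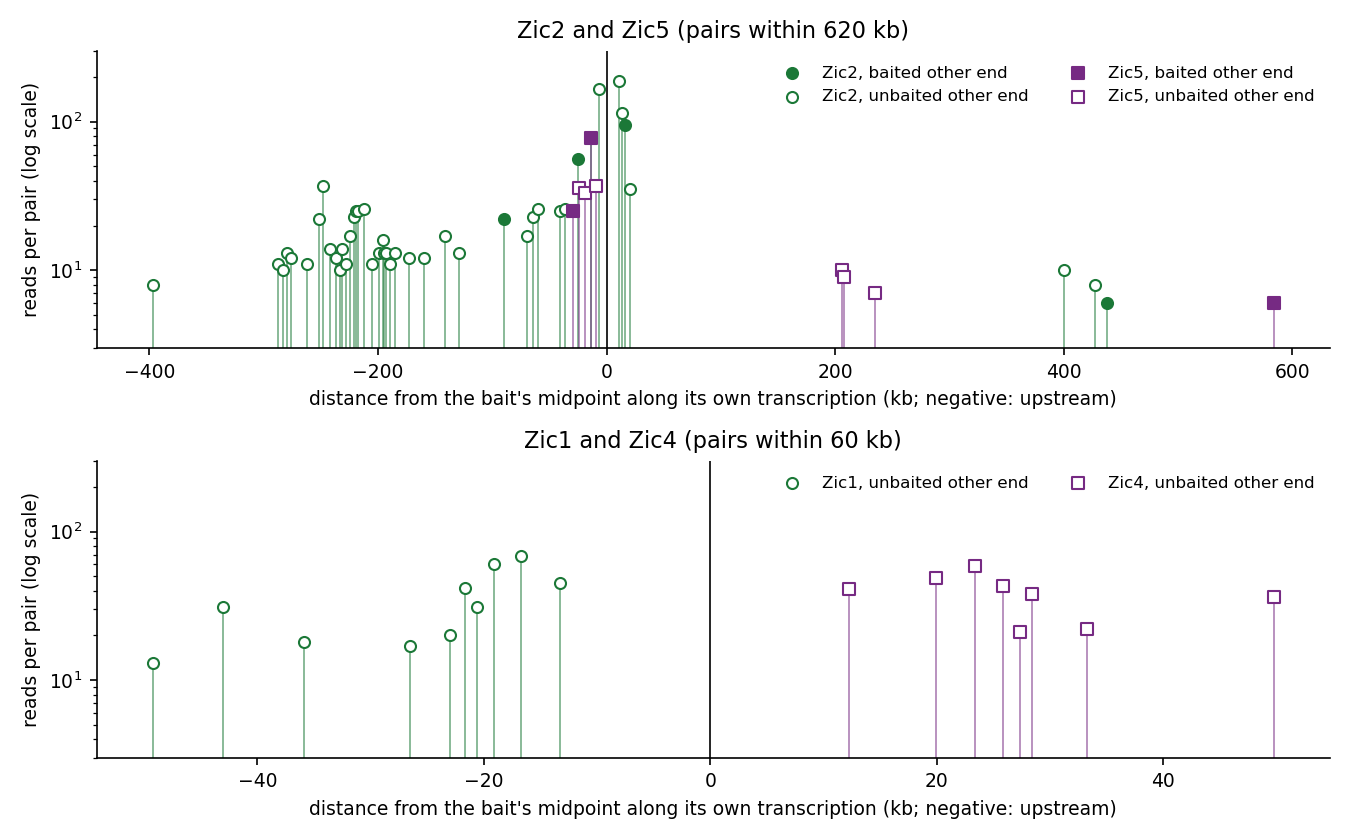
Reads per fragment pair (y axis, log scale) against the distance from the bait's midpoint, negative for upstream of the bait's own gene, for *Zic2* and *Zic5* (top) and *Zic1* and *Zic4* (bottom), with baited other ends filled. The *Zic2* pairs 129 to 288 kb upstream rise to 37 reads at 248 kb, and *Zic1* and *Zic4* reach the same stretch of the *Zic4* gene, which is drawn upstream of the *Zic1* bait and downstream of the *Zic4* bait.

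*Zic1* (chr9:91258213-91261505) and *Zic4* (chr9:91248133-91258212) are on adjoining fragments and had the most similar contacts. The promoter window found on the *Zic4* bait (chr9:91257051-91257250, + strand) lies downstream of the *Zic1* start, so these starts face each other. Whether *Zic4* has a divergent start on another fragment was not examined. They shared 11 partner fragments, 0.579 of the union of 18 and 12. The nearby shared fragments lay within the transcribed part of *Zic4* and just beyond it. From *Zic1*, 10 nearby pairs 13.3 to 49.2 kb away had 13 to 68 reads, highest at 16.7 kb. From *Zic4*, 8 pairs at 12.2 to 49.8 kb had 21 to 59 reads, highest at 23.4 kb. Not all of these pairs were shared. Neither promoter had a pair between 100 kb and 1 Mb. Beyond 1 Mb both reached *Rasgrf1*, which encodes a Ras exchange factor, at 1456 kb with 16 reads and a score of 33.22 from *Zic1* and at 1449 kb with 19 reads and 37.07 from *Zic4*. Both also reached *Tbx18*, a T-box gene, at 3634 kb with 11 reads and 28.78 and at 3627 kb with 12 reads and 29.43. Because the baits adjoin, the readings from both are not independent. *Zic1* alone was listed with *Chst2* (4047 kb, 4 reads, called from *Zic1* only), *Sox14* (8517 kb, 5 reads, score 11.13) and *Eomes* (27128 kb, 4 reads, score 8.43), and with 4 or 5 reads a pair just under the threshold for *Zic4* cannot be told from no contact.

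Most unbaited fragments over 1 Mb away from a member lay near a promoter partner. Of 17 such fragment pairs, 14 were within 50 kb of a promoter partner of the same member. The other 3 were the *En1* pairs near *Pax3* and in an intron of *Tmem163* (7071 kb) and an *Otx1* pair over an exon of *8430419K02Rik* (3127 kb). The same share was not counted over all baits or other developmental factors. It therefore cannot be called particular to the members.

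Likeness of contact profiles was measured as the number of shared partner fragments over the union, among baits with at least 3 in common. Within 1 Mb the bait most like *En2* was *Shh* (11 shared, 0.344), the one most like *Zic5* was *Gm5089* (6 shared, 0.462), and the one most like *Zic2* was *Gm10837* (9 shared, 0.173). Farther away, *En2* was most like *U6.54* (9 shared, 0.333) and then *Mnx1* (10 shared, 0.256), *Otx1* was most like *Meis1* (3 shared, 0.188) and then *Bcl11a* (3 shared, 0.115), *Zic1* most like *Tbx18* (11 shared, 0.204), *Zic5* most like *Sox21* (4 shared, 0.148) and *En1* most like *Pax3* (3 shared, 0.0526). At that range *Zic4* was most like *AF529169* (4 shared, 0.235), then *Adamts7* (0.214) and *Tbx18* (0.204), and *Zic2* most like *uce* (0.0536). Next in rank were *AC171500.1* for *En2* (0.190) and *Rasgrf1* (0.186) and *Foxl2* (0.179) for *Zic1*. Within 1 Mb, *Gm10837* (0.312) came next for *Zic5* and *Gm5089* (0.113) for *Zic2*. *Otx2* and *Gbx2*, with 4 and 2 partners, had no bait with 3 in common. In GM12878 *EN2* was most like the bait of *PAXIP1* and *PAXIP1-AS1* (0.364), then *BLACE* (0.308). Neighbouring fragments share partners through their position, so these values are a description.

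The Hi-C library gave a reading of mESC contacts at lower resolution. The paper describes these Hi-C data as pre-capture, and a CHi-C library is made by capture from a Hi-C library. The overlap below therefore cannot be taken as an independent measurement of the CHi-C calls. Of the 109 member calls under 1 Mb, 55 fell in a 25-kb bin pair listed with an FDR under 0.05, 50.5% (41.2 to 59.7), against 11.6% (11.4 to 11.8) of all calls and 44.6% (43.0 to 46.1) of those of other developmental factors. The share differed by score, from 36.8% of member calls with scores under 10 to 80.0% of those from 20 upwards, and over all calls from 8.39% to 60.1%. A bin holds several fragments, and the 50 distinct member pairs counted here lay in only 9 bin pairs. Over 1 Mb, 22 of 54 member calls fell in a listed 1-Mb bin pair, 40.7% (28.7 to 54.0), against 57.2% (55.6 to 58.7) of all calls over 1 Mb or in *trans*, and 50.9% (48.0 to 53.8) of those of other developmental factors. These were 14 pairs in 8 bin pairs.

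By locus, the bin pair that joins *En2* and *Shh* held 41 Hi-C read pairs where 4.36 were expected from coverage and distance, a ratio of 9.41, the highest of the member pairs. Of the 28 *Zic2* fragments 129 to 288 kb upstream, 14 lay in a bin pair with an FDR under 0.05. These bin pairs held 35 against 6.03 expected (with the rise at 212 to 221 kb), 27 against 6.83 (228 to 242 kb) and 24 against 3.93 (with the peak at 248 kb). Fragments past 270 kb lay in a bin pair of 18 against 5.01 with an FDR of 0.218. No fragment from 129 to 199 kb was in a bin pair that passed. The *Zic1* pairs at 13.3 to 26.5 kb and the *Zic4* pairs at 20.0 to 33.2 kb shared a single bin pair of 127 against 45.0. *Otx2* and *Peli2* lay in a bin pair of 19 against 4.09, FDR 0.00637. *En1* and *C1ql2* lay in one of 26 against 8.69, with an FDR of 0.136, and none of the 10 *En1* pairs under 1 Mb passed. None of the 10 *Otx1* pairs, *Bcl11a* and *Meis1* included, was in a listed bin pair, and neither *Gbx2* pair passed. In the 1-Mb bins, *En2* with *Mnx1* had 3874 read pairs against 2783, *Zic1* and *Zic4* with *Tbx18* 393 against 224, *Zic1* with *Eomes* 179 against 105, *En1* with *Fev* 159 against 73.0 and *Zic2* with *Egr3* 199 against 52.8, a ratio of 3.77. *Rasgrf1*, *Sox14*, *Sox21*, *Lhx9* and *Gli2* were not in listed 1-Mb bin pairs with their member.

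**Figure D5:**
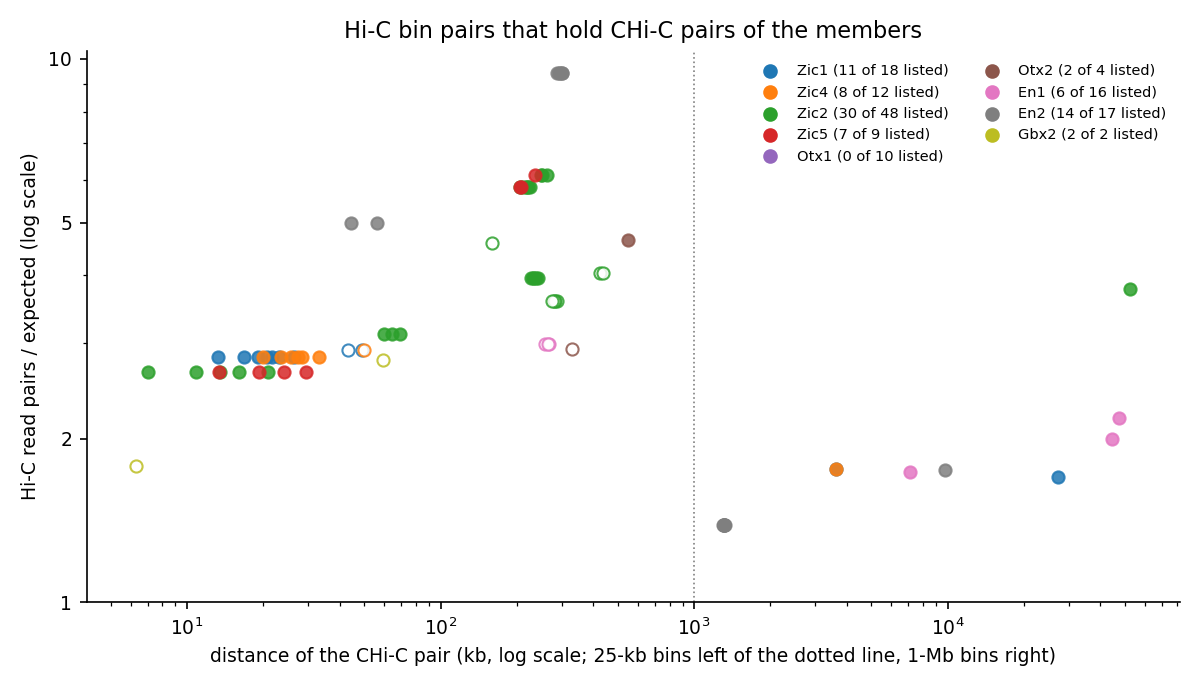
Hi-C read pairs over expected (y axis, log scale) of the bin pair that holds each CHi-C pair of a member against the distance of that pair (x axis, log scale), filled where the FDR is under 0.05. Points at equal height share a bin pair, *En2* with *Shh* is highest at 9.41, and *Otx1* has no listed bin pair.

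The Hi-C list also joined members that CHi-C did not. The 1-Mb bins of *Gbx2* and *En1*, 30671 kb apart on chromosome 1, had 159 read pairs against 101 expected (FDR 1.7e-05). Those of *Otx2* and the *Zic2* and *Zic5* genes, over 73 Mb apart on chromosome 14, had 100 against 40.6. No bin pair between members on different chromosomes was listed. Whether the promoters themselves or other parts of these bins meet cannot be told apart at this width. The paper reports that few of the wide Hi-C contact areas held any CHi-C interaction. A listed bin pair without a CHi-C call is therefore not particular to the members. How often bins this far apart are listed was not counted.

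GM12878 had fewer calls at these promoters, with lower scores. The 16 calls had 4 to 21 reads, with a median of 7, and scores of 5.11 to 12.28, with a median of 5.86, against 4 to 189 reads, a median of 13, and a median score of 8.90 over the 163 mESC calls. Only 2 of the 16 reached a score of 10, against 72 of the 163. The median over all calls was 16 reads in GM12878 and 13 in mESCs, so the members' median was below that background in GM12878 only. In mESCs, 68 of 109 member calls under 1 Mb had a score under 10, against 82233 of 97826 of all calls. Among other developmental factors it was 2382 of 3925. Under 1 Mb, scores of at least 10 were thus more frequent among mESC members than among all mESC calls. The other developmental factors shared this trait. The same count over all GM12878 calls was not made. All 16 calls spanned 40.1 to 750 kb, with a median of 497 kb (266 to 621) against 174 kb for all GM12878 calls. Of the 16, 0 spanned over 1 Mb, which allows a share of up to 18.8%. Other developmental factors also had fewer calls in GM12878, 1534 against 5029 in mESCs. Of these, 2.15% spanned over 1 Mb, against 21.7% in mESCs, and 0 of 203 baits had such a call to a baited fragment. Their median was 257 kb and 14 reads. Fewer calls and fewer long ones were thus not particular to the members. As baits, 0 of the 5 member fragments had a call over 1 Mb to a baited fragment (1.91% of GM12878 baits did), over 1 Mb to any fragment (3.50%), over 10 Mb (0.175%) or in *trans* (0.273%), a partner on the developmental list (1.94%) or a score of at least 30 (1.44%). With 5 baits such shares cannot be told from the background. Bait-to-bait calls were 9 of 16, 56.2% (33.2 to 76.9), but 8 of the 16 were called from the partner's bait and so are bait-to-bait by construction. With a member as the bait it was 1 of 8, 12.5% (2.24 to 47.1), against 29.4% of all calls.

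*EN2* had 5 promoter partners in GM12878, each called from the partner's bait, namely *PAXIP1-AS2* at 532 kb with 12 reads and the score of 12.28, *HTR5A* with its antisense transcript at 392 kb with 9 reads, *AC099552.4* at 266 kb with 7, *RBM33* with *AC009403.2* at 185 kb with 6 and *AC008060.7* at 76.6 kb with 20. *EN1* lay on 2 adjoining baits with 6 calls, 5 of them to unbaited fragments 467 to 629 kb away and 1 from *INSIG2* at 750 kb with 4 reads. *OTX1* was reached from the bait of *MDH1* and *WDPCP* at 540 kb on 4 reads. *GBX2* had a baited partner, *AC064874.1*, at 381 kb with 11 reads and an unbaited one in an intron of *AGAP1* at 408 kb with 9. The fragment of *ZIC2* and *ZIC5* was joined to an intron of *PCCA* at 533 kb by 6 reads, and that of *ZIC1* and *ZIC4* to *RP11-649A16.1* at 40.1 kb by 21.

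No pair of a member and a partner symbol was called in both cell types, 0 of 35 pairs in mESCs and 0 of 13 in GM12878, which allows shares of up to 8.57% and 23.1%. Over all baits 3645 symbol pairs were called in both cell types, 12.5% of the mESC pairs and 6.45% of the GM12878 pairs, so the 0 of 13 cannot be told from that background. Where both symbols are on named fragments of both lists, 0 of 15 mESC member pairs and 0 of 2 GM12878 member pairs recurred. Over all baits 31.2% of such mESC pairs (3645 of 11684) and 35.5% of such GM12878 pairs (3645 of 10277) did. Whether these shares differ was not tested. The *SHH* promoter was not among the partners of *EN2*, nor *MNX1*. Neighbouring genes did recur under other symbols or on unbaited fragments. *Agap1* held an unbaited partner of *Gbx2* in either species, *Pcca* one of *Zic2*, over an exon at 401 kb in mESCs, and the region of *Paxip1* a partner of *En2* through *Paxip1* itself in mESCs and *PAXIP1-AS2* in GM12878. Species, cell type and depth differ together between these sets of calls and cannot be told apart.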

How the data were processed

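The members and gene lists were chosen with earlier results of these data known. The authors mapped read pairs of 2 mESC and 3 GM12878 libraries to mm9 and hg19 with HiCUP, and HiCUP also removed artefacts and duplicates. CHiCAGO was then run on the merged replicates. The deposited read count of a call is the authors' mean over replicates, weighted by size factors and rounded. The deposited score is the authors' CHiCAGO score, with calls listed from 5. For Hi-C, the authors deposited HOMER output (the processing notes name HOMER 4.7 and Bowtie 1.1.0), with the count of read pairs per bin pair, the expected signal and an FDR, a p-value adjusted by the authors. Depth is given by the number of calls and their reads. How many read pairs each library had was not used here.

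Gene names in mESC fragments are joined by commas or bars as well as semicolons, so names were split at all 3 and transcript suffixes were dropped. A fragment counted as baited when it is listed as a bait or carries a name. Distances are between fragment midpoints. No test was possible with a single set of calls per cell type. Shares have Wilson 95% intervals, medians order-statistic 95% intervals, and a 0 the limit of 3 counts. All these cover counting error only. Calls under 1 Mb were looked up in the 25-kb Hi-C list and others in the 1-Mb list, by midpoint, at an FDR under 0.05. The code was tested on simulated data. All 17157 named mESC fragments start at AAGCTT in mm9. Genes, exons and starts came from GENCODE of the same builds, and Python 3.11.15, NumPy 2.4.6, SciPy 1.17.1 and Matplotlib 3.10.9 were used.

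The genes named are the 9 members and, for each member fragment, the partner with the highest score, with the most reads and at the longest distance, the 5 promoter partners with the highest scores, all promoter partners over 10 Mb away, pairs between members, list genes and the 3 baits most like it. Further fragments were named after their values were seen, to describe the runs of calls. Shares per pair over 1 Mb were added after seeing the data. The alternatives tried were a score of at least 10, at least 10 reads, each pair once, members as baits only, the browser list, and for Hi-C an FDR under 0.01, all listed bin pairs, and overlap in place of midpoints.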

Additional observations from a re-analysis of the deposited data

How the results depend on the processing

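No paired analysis was possible because the deposited calls of a cell type come from its merged replicates, and for the same reason no replicate could be left out. Of 68 values under an alternative, 48 stayed within the interval of the reported value, or for a count within 1.5 times of it, and 20 did not. A score of at least 10 left 72 mESC and 2 GM12878 calls, with a bait-to-bait share in mESCs of 51.4% and a Hi-C share under 1 Mb of 73.2%. At least 10 reads per call left 5 GM12878 calls, with bait-to-bait shares of 30.9% in mESCs and 80.0% in GM12878, a median distance of 151 kb, a developmental partner share of 23.5% and a share over 10 Mb of 0% in mESCs (0 of 110 calls, which allows up to 2.73%). Every member call over 10 Mb in mESCs thus rests on fewer than 10 reads. With each pair counted once, as in the browser list, the mESC bait-to-bait share was 25.7%, and with members as baits only it was 24.6%, with 8 calls and 12.5% in GM12878. With all listed Hi-C bin pairs the share under 1 Mb was 66.1%. The broader developmental list, chosen after seeing the data, gave 38.7%. Of calls over 1 Mb in mESCs, also examined under alternatives chosen after seeing the data, the bait-to-bait share was 68.5% as reported, 52.8% with each pair counted once or members as baits only, and 94.1% with at least 10 reads per call, where the share of calls over 1 Mb was 15.5%. The number of symbol pairs in both cell types was 0 throughout. Read counts of 4 to 8 at the most distant pairs limit what a missing call shows.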
